A study of Caenorhabditis elegans with 2 samples.

Results

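The regions described here are weak peaks in the exons of protein-coding genes, from a ChIP-seq study (chromatin immunoprecipitation, then sequencing) of a tagged Hox protein in Caenorhabditis elegans embryos. In the list called on both replicates together, ranked by its signal score, all peaks below the 3000 strongest, down to rank 30000, were taken as weak. A member had to overlap a peak of each replicate list by at least 1 bp, with its summit in an exon and over 500 bp from any tRNA, snoRNA or snRNA gene. Of the 30000 pooled peaks, 3296 met this rule. Signal, rank and overlap chose the members, so these are given as a description and with no test.

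The embryos were of strain OP756, which carries the unc-119(tm4063) allele and the transgene wgIs756, in which TY1, EGFP and 3xFLAG tags are fused to ceh-13 and unc-119(+) is included. The 1 group held 2 biological replicates of mixed-sex early embryos, aged 2 hours and obtained by egg bleaching, and DNA was recovered with an antibody against GFP. The labels list no change to the worm's own ceh-13 gene, so only the tagged product of 1 transgenic line was followed, in whole embryos of many cell types. The study asked which genomic sites the tagged protein occupies, and no untagged or other control sample was analysed here.

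CEH-13 is the labial-type Hox transcription factor of the worm, with a role in anterior patterning of the embryo. Hox proteins bind short AT-rich sites, often as a pair with a homeodomain partner of the PBC class, and regulatory sites are mostly sought in promoters, introns and the DNA between genes. Exons carry codons and are richer in GC than the rest of the worm genome. On the autosomes, gene-dense central regions with many widely expressed genes are flanked by arms that recombine more and hold many rapidly evolving gene families.

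Most member summits lay in coding sequence. The windows shown here each lie within 1 coding exon and run 100 bp to each side of the summit, read 5′ to 3′ on the strand of the gene, from the RefSeq sequence of WBcel235. They show members of the highest, middle and lowest pooled signal and, chosen in addition, a histone and a chemoreceptor window that differ in GC content. Capitals mark a match on either strand to TGATNNAT (the Hox and PBC composite site), TAATTA (a homeodomain core) or GGGCGG (a GC box).
ten-1 (chrIII:6844688-6844888, plus strand): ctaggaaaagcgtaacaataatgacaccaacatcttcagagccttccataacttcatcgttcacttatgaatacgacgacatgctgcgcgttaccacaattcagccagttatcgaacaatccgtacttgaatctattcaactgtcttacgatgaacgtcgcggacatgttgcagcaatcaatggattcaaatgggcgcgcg
set-16 (chrIII:13651491-13651691, plus strand): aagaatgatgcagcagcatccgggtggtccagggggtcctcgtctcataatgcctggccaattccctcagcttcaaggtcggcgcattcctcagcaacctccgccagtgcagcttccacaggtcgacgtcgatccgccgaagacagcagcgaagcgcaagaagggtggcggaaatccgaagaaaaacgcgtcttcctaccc
col-171 (chrX:6334726-6334926, plus strand): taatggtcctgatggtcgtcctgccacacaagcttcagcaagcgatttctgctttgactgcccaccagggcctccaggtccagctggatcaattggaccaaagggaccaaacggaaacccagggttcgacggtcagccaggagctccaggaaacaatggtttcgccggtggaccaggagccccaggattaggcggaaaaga
mel-28 (chrIII:4787332-4787532, plus strand): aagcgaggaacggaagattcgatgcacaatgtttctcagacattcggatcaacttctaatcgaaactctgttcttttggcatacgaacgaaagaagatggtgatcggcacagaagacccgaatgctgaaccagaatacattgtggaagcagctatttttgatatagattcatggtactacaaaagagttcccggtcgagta
ttn-1 (chrV:6127099-6127299, minus strand): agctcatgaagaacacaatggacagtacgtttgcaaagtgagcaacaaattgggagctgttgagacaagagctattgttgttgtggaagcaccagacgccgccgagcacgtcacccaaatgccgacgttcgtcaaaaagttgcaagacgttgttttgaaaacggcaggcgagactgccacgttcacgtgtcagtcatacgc
spc-1 (chrX:3120027-3120227, minus strand): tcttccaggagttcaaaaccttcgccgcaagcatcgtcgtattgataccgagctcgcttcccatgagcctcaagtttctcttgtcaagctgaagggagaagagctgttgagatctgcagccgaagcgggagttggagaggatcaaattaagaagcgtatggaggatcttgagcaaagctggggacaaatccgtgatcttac
F09E5.7 (chrII:5352637-5352837, plus strand): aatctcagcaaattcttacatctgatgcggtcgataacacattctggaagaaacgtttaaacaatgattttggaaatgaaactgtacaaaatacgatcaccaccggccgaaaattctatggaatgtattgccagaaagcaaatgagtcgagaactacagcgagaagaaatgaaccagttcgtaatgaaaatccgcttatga
his-2 (chrV:16041958-16042158, minus strand): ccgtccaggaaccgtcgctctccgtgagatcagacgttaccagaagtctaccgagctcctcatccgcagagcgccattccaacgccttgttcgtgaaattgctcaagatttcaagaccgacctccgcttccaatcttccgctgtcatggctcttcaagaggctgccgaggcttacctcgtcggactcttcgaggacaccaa
str-171 (chrV:15132314-15132514, minus strand): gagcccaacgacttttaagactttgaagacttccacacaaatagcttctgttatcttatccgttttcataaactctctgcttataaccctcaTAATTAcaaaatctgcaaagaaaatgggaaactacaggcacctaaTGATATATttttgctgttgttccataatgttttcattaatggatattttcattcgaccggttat

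Of these 9 windows, str-171 was the only one with a match, to TGATNNAT and to TAATTA. Its GC content was 33.8%, the lowest of the 9, while that of set-16 was the highest at 58.7%. ten-1 encodes a teneurin, a transmembrane protein of neuronal and epithelial development, and its window lies in exon 11, which is 1921 bp long. set-16 encodes a histone H3 lysine methyltransferase of the MLL family, col-171 a cuticle collagen and ttn-1 the giant muscle protein titin. mel-28 encodes a protein of the nuclear envelope and of chromatin, spc-1 α-spectrin and his-2 a core histone. str-171 belongs to the serpentine chemoreceptors, and F09E5.7 is named by its sequence name alone. Histone genes occur in near-identical copies, between which short reads can be shared, so the place of the his-2 peak is uncertain.

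Most members were weak in all 3 lists. Their pooled signal, a score whose scale is not stated, ran from 23.7 to 50.5 with a median of 35.7. None of them had a pooled q-value under 0.05, and the median q-value was 0.656. Their signal in the replicate 1 list ran from 15.7 to 108 with a median of 22.3, close to the 21.2 of that whole list. In the replicate 2 list it ran from 12.5 to 81.4 with a median of 18.01, against 17.04 for that whole list. In each replicate list the members therefore sat near the middle of the 30000 peaks. A q-value under 0.05 was reached by 64 members (1.94%) in replicate 1, against 3.15% of all weak pooled peaks that overlapped both lists. In replicate 2 it was reached by 66 (2.00%), against 3.09%.

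The strongest members show how the values of 1 peak lay across the lists. The ten-1 peak, first below the bound of rank 3000, had a pooled signal of 50.5, a replicate 1 signal of 22.2 and a replicate 2 signal of 20.7. The peak in drap-1, homologous to a subunit of a human transcriptional repressor, had 29.996 in replicate 1 and 33.5 in replicate 2, which is rank 4458 and rank 1009. The peak in cpt-1, a carnitine palmitoyltransferase gene of fatty acid oxidation, had 29.1 in replicate 1 and 18.8 in replicate 2. None of these 3 peaks was among the 1000 strongest of either replicate. The other peaks among the 10 strongest members lay in the splicing factor gene smu-2, in mam-6, in the cyclophilin gene cyn-12, in the collagen gene col-45, in Y43C5A.7, in F13D12.10 and in set-16. Across the 10, the replicate 1 signal ran from 21.8 (smu-2) to 29.996 (drap-1) and the replicate 2 signal from 14.7 (mam-6) to 33.5 (drap-1). The lowest-ranked members were C53A5.2 (rank 29989) and F09E5.7 (rank 29990), both with a pooled signal of 23.7. Yet C53A5.2 had 24.7 in replicate 1 and 24.5 in replicate 2, above the ten-1 peak in both. These replicate values are not its own alone: the stronger C53A5.16 member of rank 4854, which overlaps it, has the same ones. The F09E5.7 member of rank 29990 likewise has the replicate values (25.9 and 16.8) of an overlapping F09E5.7 member of rank 5941. Just outside the rule, the exonic peaks of C03A3.1 (rank 2990) and of the nitrilase gene nft-1 (rank 3000) had a pooled signal of 50.5, the same as ten-1 to 3 digits.

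Among the members, a high signal in 1 replicate did not go with a high signal in the other. Spearman's rho between the replicate signals was 0.00107 over 3296 members, which share both libraries and the control alignment. It was 0.0370 over the 6752 weak replicated peaks outside exons and -0.244 over the 563 exonic peaks of rank 1 to 3000 that overlapped both lists. Pooled signal went with replicate 1 signal at rho 0.301 and with replicate 2 signal at rho 0.231, and the pooled list was made from both libraries. All 3 sets were chosen on pooled signal, which limits what rho can show. The summits in the replicate lists were a median of 155 bp apart. In 1162 members (35.3%) they lay within 100 bp of each other. The rule limits this distance, since both replicate peaks must overlap the same pooled peak. The share was not taken for other peaks, so it cannot be called high or low.

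**Figure D1:**
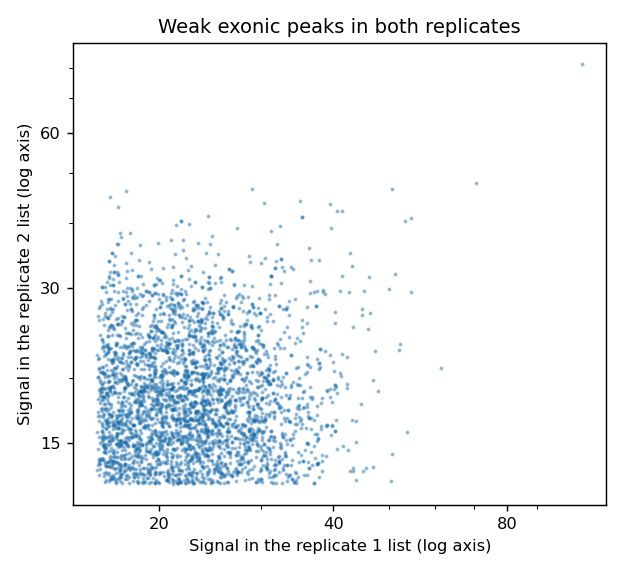
Signal of each of the 3296 weak exonic peaks in the replicate 1 list (horizontal, log axis) and in the replicate 2 list (vertical, log axis), 1 point per peak. The points fill a block with no slope (rho 0.00107), and krr-1 stands alone at the upper right with 108 and 81.4.

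A q-value under 0.05 in both replicates was reached by 8 members (0.243%), against 1.1% of all weak pooled peaks that overlapped both lists. The latter again include peaks near tRNA, snoRNA and snRNA genes. All 8 overlapped a stronger pooled peak, of rank 131 to 1161, as did 112 of the 113 weak replicated peaks that met that q-value (99.1%). The 8 were chosen after their values were seen. The highest in both replicates was the member in krr-1, a ribosome assembly gene (chrV:7231034-7231453, coding sequence), with 108 in replicate 1, 81.4 in replicate 2 and a pooled signal of only 42.9. It overlapped the pooled peak of rank 131. The member in mut-15, a gene of the small RNA silencing pathway, had 70.6 and 47.9 and overlapped the pooled peak of rank 295. The others lay in Y69H2.9, lsy-13, F40G9.5, the afadin gene afd-1, the AMP kinase β subunit gene aakb-2 and F34D6.1. The value taken from a replicate list was that of its strongest overlapping peak. Whether these replicate peaks belong to the member or to its stronger neighbour was not tested.

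Such overlaps were common at the low end of the list. Of all members, 649 (19.7%) overlapped a stronger pooled peak, against 6.29% of the 5661 weak exonic peaks that missed at least 1 replicate list. A weak peak beside a stronger one can meet the overlap rule through the neighbour's replicate peaks, so this difference is no test. Among members, the share was 4.90% between ranks 3000 and 5000 and 52.1% between ranks 25000 and 30000. A lower-ranked peak also has more stronger peaks that it can overlap. A replicate 1 peak was shared with another member by 562 members, and a replicate 2 peak by 561. spc-1 shows this: its member of rank 3289 and its member of rank 29890 overlap the same replicate peaks, of signal 35.3 in replicate 1 and 41.1 in replicate 2. The authors' IDR list holds 512 peaks selected on their irreproducible discovery rate. Within 1000 bp of a summit in that list lay 24 members (0.728%), close to the 0.802% of eligible exon bases that lie there.

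Weak replicated peaks fell in eligible exon bases slightly more often than the share of these bases in the genome, and the strongest peaks much less often. Of all 27000 weak pooled peaks 10285 overlapped both lists (38.1%), and of the 8957 in exons 3296 did (36.8%), while outside exons the share was 38.3%. Since the rule used this overlap, the shares are a description. Among the replicated weak peaks 32.0% (95% Wilson interval 31.2 to 33.0) had an exonic summit, and eligible exon bases made up 29.2% of the genome. The exon share was 2.73% (1.64 to 4.54) of the pooled peaks of rank 1 to 512 and 20.6% (19.2 to 22.1) of ranks 1 to 3000. Among the weak peaks of the replicate lists, it was 32.7% in replicate 1 and 33.3% in replicate 2. In these shares, peaks near a tRNA, snoRNA or snRNA gene stay in the total but never count as exonic. How far this lowers the share of the strongest peaks was not tested. Intervals here cover the counting of peaks only, and neighbouring peaks are not independent. No read numbers are given, so the depth is unknown.

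Overlap with both replicates fell steadily with rank. It held for 75.9% of exonic peaks between ranks 3000 and 5000, for 42.2% between 10000 and 15000 and for 16.9% (15.1 to 18.7) between 25000 and 30000. A window of 420 bp, the most frequent pooled peak width, touched a peak of both lists at 9.30% of all exon bases. That share was 5.74% where GC content was under 35% and 25.9% where it was 50% or more.

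**Figure D2:**
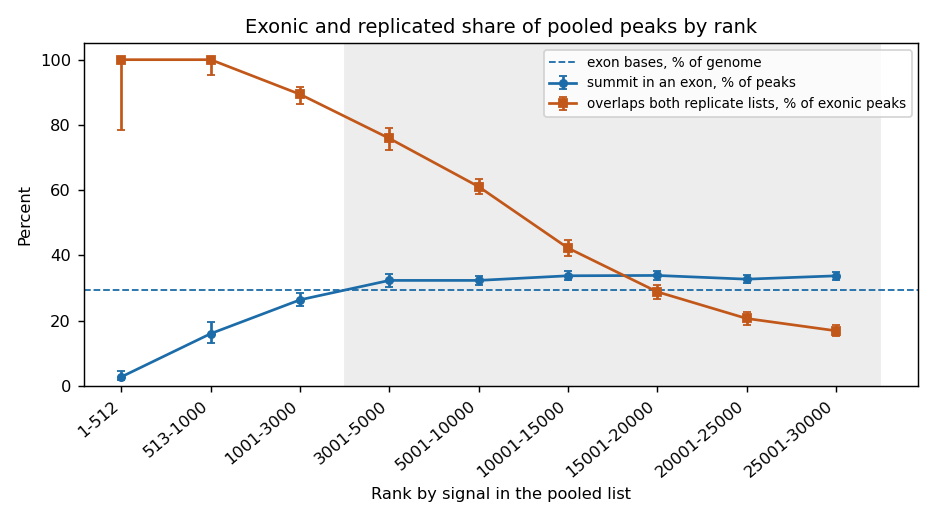
Share of pooled peaks with an exonic summit (blue) and share of those exonic peaks that overlap both replicate lists (orange), in percent, by class of pooled rank, with 95% Wilson intervals. The exonic share climbs from 2.73% to the level of exon bases in the genome (dashed, 29.2%) and stays near 33%, while overlap with both lists drops from 75.9% to 16.9% across the shaded ranks.

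Coding sequence held 85.95% of summits (84.7 to 87.1), against 83.5% of exon bases. Annotated 5′ UTRs held 6.83% (6.01 to 7.74) against 5.97%, and 3′ UTRs held 9.31% (8.37 to 10.4) against 12.2%. The coding share was thus slightly above and the 3′ UTR share below that of the bases, while exonic peaks of rank 1 to 3000 had 13.6% in 5′ UTRs (11.1 to 16.5). The promoter window, which starts 1000 bp before a protein-coding gene and ends 500 bp into it, held 30.4% of members (28.8 to 32.0) and 29.7% of exon bases. Members per Mb rose with exon length, from 89.2 in exons of up to 150 bp to 148 in exons over 1000 bp. The median GC content of the bases in those exons was 36.3% and 41.3%. Sequence in lower case in the reference, which marks repeats, held 8.71% of member summits and 13.1% of exon bases.

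The members were richer in GC than exon sequence at large, and their density climbed with GC content. The median GC content within 100 bp of the summit was 43.3% in the members, 38.8% over exon bases and 41.8% in weak exonic peaks that missed at least 1 replicate list. It was 46.8% in exonic peaks of rank 1 to 3000. In exons whose windows had under 35% GC there were 45.2 members per Mb (95% Poisson interval 40.8 to 50.1). The density was 75.7 at 35 to 40%, 125 at 40 to 45%, 219 at 45 to 50% and 408 (376 to 441) at 50% or more, a 9.01-fold range with no overlap between classes. Both replicates showed the gradient on their own, at 5.21-fold in the weak exonic peaks of replicate 1 and 3.78-fold in those of replicate 2. Among exonic peaks of rank 1 to 3000 the range was 26.1-fold. Within the members, GC content went only weakly with signal (rho 0.0883 in replicate 1 and 0.0748 in replicate 2, n = 3296).

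At equal GC content exons held fewer such peaks than other DNA. Members numbered 112 per Mb over all eligible exon bases, and weak replicated peaks outside exons 96.6 per Mb of the other bases. In the class of 40 to 45% GC, however, the density was 125 (117 to 133) in exons and 182 (173 to 191) outside. At 50% or more it was 408 in exons and 482 (445 to 521) outside. The exon value was the lower in all 5 classes, and the intervals overlapped in the class under 35%. The median GC content of bases outside exons was 33.3%. The part of GC content in sequencing or in binding was not tested.

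**Figure D3:**
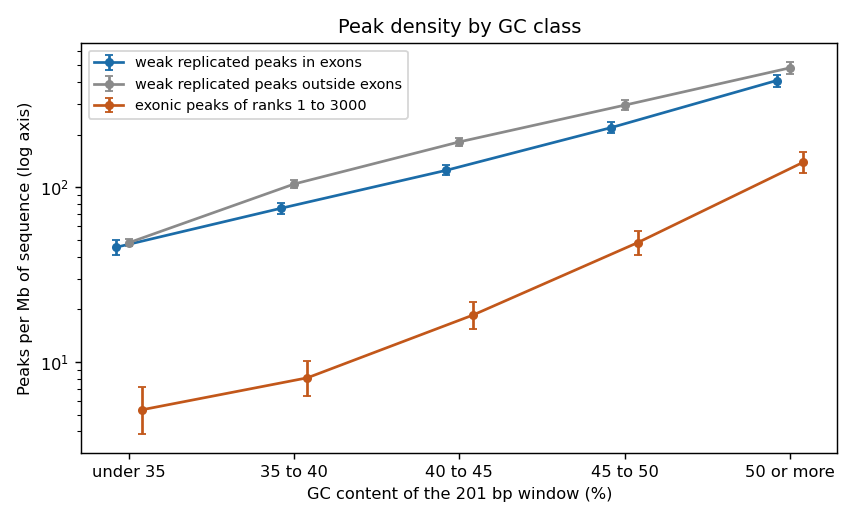
Peaks per Mb of sequence (log axis) by GC content within 100 bp, for the members (blue), weak replicated peaks outside exons (grey) and exonic peaks of rank 1 to 3000 (orange), with 95% Poisson intervals. All 3 lines climb, the members from 45.2 to 408 per Mb, and the grey line lies above the blue one in every class.

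The members were denser on chromosome arms than in the centres, and so were the weak replicated peaks outside exons. Chromosome III had the highest density at 142 per Mb of exon, followed by I at 131, II at 124, IV at 100.9, X at 99.3 and V at 88.0. With each chromosome cut into 6 equal parts, the 2 central parts (the centre, a division chosen after the values were seen) held 27.3% of members (25.8 to 28.8) and 39.7% of exon bases. The density was 77.2 per Mb in the centre and 136 outside it, a ratio of 1.76. The ratio was lowest on X at 1.27 and lay between 1.72 and 1.96 on the 5 autosomes. Arms and centres differed in GC content too: on chromosome I the median over exon bases was 42.3% in part 1, with 244 members per Mb, and 37.3% in part 4, with 85.6. Within GC classes the ratio was 1.57 under 35% GC, 1.59 at 35 to 40%, 1.33 at 40 to 45%, 1.22 at 45 to 50% and 1.03 at 50% or more. The ratio was thus highest at low GC content and near 1 in the most GC-rich exons. The centre held 31.1% of the weak exonic peaks of replicate 1 and 32.9% of those of replicate 2. It held 26.5% of exonic peaks of rank 1 to 3000 and 31.7% of weak exonic peaks that missed at least 1 replicate list. Of the weak replicated peaks outside exons 21.7% lay there, against 30.6% of the bases outside exons.

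**Figure D4:**
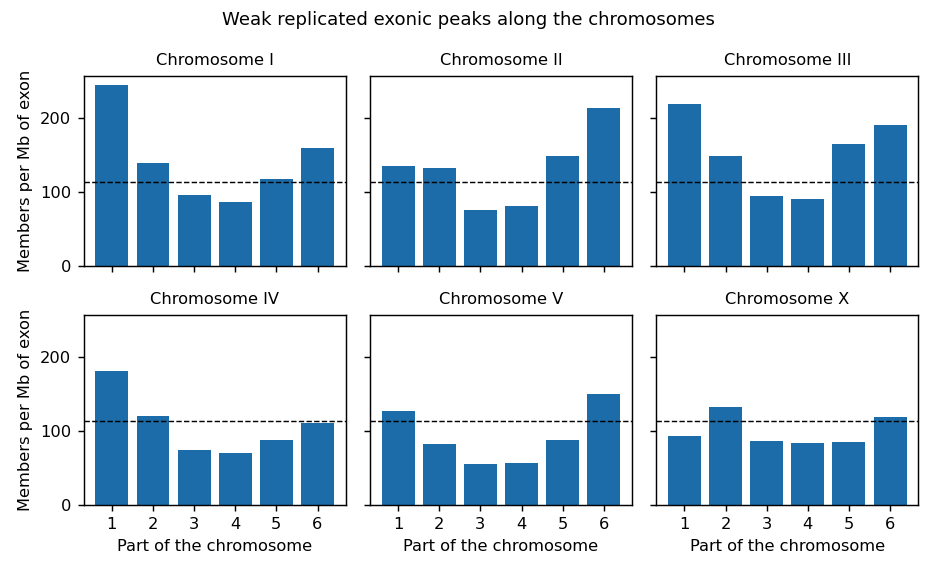
Members per Mb of exon in each of 6 equal parts of the 6 chromosomes, with the density over all exons dashed (112 per Mb). Parts 3 and 4 lie below the dashed line on every chromosome, and part 1 of chromosome I is the highest bar at 244 per Mb.

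The members fell in exons of 2626 of 19973 protein-coding genes (13.1%). Of these genes 2105 had 1 member, 407 had 2, 76 had 3, 25 had 4 and 13 had 5 or more. Longer genes were hit more often, from 4% of genes with up to 500 bp of exon to 52.8% of those with over 5000 bp. The density per Mb of exon ranged only from 101.1 to 134 across the classes of exon length per gene. An IDR summit in the promoter window was present at 60 of the 2626 genes (2.28%) and at 329 of all 19973 (1.65%).

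The genes with the most members were picked by that count alone. spc-1 and unc-44, a giant ankyrin, had 7 each. With 6 each followed ced-1 (a receptor for the engulfment of dying cells), dys-1 (dystrophin), sma-1 (a β-spectrin of epithelia), tln-1 (talin) and vab-10 (a spectraplakin). The 7 members of spc-1 all lay in coding sequence, at pooled signals from 23.7 to 49.3. Their replicate 1 signals ran from 22.8 to 35.3 and their replicate 2 signals from 12.8 to 41.1. The 7 members of unc-44 ran from 18.5 to 26.1 in replicate 1 and from 14.6 to 25.4 in replicate 2. Per length of exon, the order was different: ced-1 had 1231 members per Mb, spc-1 895, unc-44 305 and vab-10 249. Each of the 7 genes was above the 112 per Mb of all exons, as a choice by highest count would give.

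GC content also tracked the gene families in which members were found. For each of 20 lists of genes, the members were counted beside the number that the density of all exons would give and beside the number that the density in exon bases of the same GC content would give. Collagen genes had 73 members (95% Poisson interval 57.2 to 91.8), against 23.5 at the density of all exons and 70.4 at equal GC content. The median GC content of collagen exons was 51.2%. Histone genes had 15 (8.40 to 24.7), against 4.17 and 10.7. Cytosolic ribosomal protein genes had 10 (4.795 to 18.4), against 4.398 and 7.87. The excess in these 3 families was therefore within counting error of the value at equal GC content. Both backgrounds were taken from all members, those of the list itself included. The collagen members had signals near those of all members, with a median pooled signal of 36.0, a median replicate 1 signal of 21.8 and a median replicate 2 signal of 19.5. Of the 73, 70 lay in coding sequence and 22 overlapped a stronger pooled peak.

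Chemoreceptor and F-box genes were poor in members beyond their GC content. The serpentine receptors, the large family of chemosensory receptors, had 46 members (33.7 to 61.4) in 43 of 1310 genes, against 156 at the density of all exons and 97.7 at equal GC content. Of their exon bases, 24.5% are in the chromosome centres, against 39.7% of all exon bases. F-box and MATH genes, whose products mostly select proteins for degradation, had 27 (17.8 to 39.3), against 55.6 and 40.9. Of the exon bases of these genes, 4.51% are in the centres. No count was made at equal position and equal GC content together, so the part of position was not tested. Maternal and germline genes had 20 (12.2 to 30.9), against 27.9 and 34.2.

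Cell division and homeobox genes lay on the other side. Cell cycle and replication genes had 37 members (26.1 to 51) in 28 of 89 genes, against 19.3 at the density of all exons and 22.01 at equal GC content. The strongest was in mcm-5, a subunit of the replicative helicase, with 30.2 in replicate 1 and 23.3 in replicate 2. Homeobox genes other than the Hox genes had 27 (17.8 to 39.3) in 22 of 90 genes, against 15.4 and 16.1. Their strongest member was in the 5′ UTR of ceh-40, a PBC-class homeobox gene, with 29.5 in replicate 1 and 21.7 in replicate 2. These 2 lists were the only ones of the 20 with an interval above the value at equal GC content, and 3 lay below it. For the other 15, the interval held that value. No adjustment was made for the number of lists, and genes were removed from the homeobox and chemoreceptor lists after values were seen. A stronger pooled peak was overlapped by 8 of the 37 cell cycle members and 4 of the 27 homeobox members. The 6 Hox genes had no member, against 0.944 at the density of all exons, a number too small to show a lack.

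For the other lists, each count is given against the density of all exons and then against equal GC content. Of all 20 lists, 7 had an interval above the count at the density of all exons and 2 had one below it. Transcription and chromatin genes had 52 members (38.8 to 68.2), against 33.4 at the density of all exons and 42.5 at equal GC content. Their strongest member was in set-16. Splicing and RNA-binding genes had 31 (21.1 to 44), against 17.1 and 23.2, with hrpr-1, an hnRNP gene, strongest. Muscle and giant cytoskeletal protein genes, a list that includes spc-1, had 54 (40.6 to 70.5; 68.5 at equal GC content and 45.7 at the density of all exons, both within the interval). There were 42 in the nuclear hormone receptor genes (30.3 to 56.8), against 46.1 and 36.6. The C-type lectin genes had 32 (21.9 to 45.2), against 31.5 and 35.4. Wnt and Notch pathway genes had 19 (11.4 to 29.7), against 13.4 and 13.7. Heat shock protein genes had 17 (9.90 to 27.2), against 10.2 and 11.1, among them hsp-90 with 43.1 in replicate 1 and 33.0 in replicate 2. Aminoacyl-tRNA synthetase genes had 12 and translation factor genes 10. Vitellogenin and major sperm protein genes had 2 each (0.242 to 7.22), against 3.35 and 6.87 for the former and 1.76 and 4.03 for the latter.

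**Figure D5:**
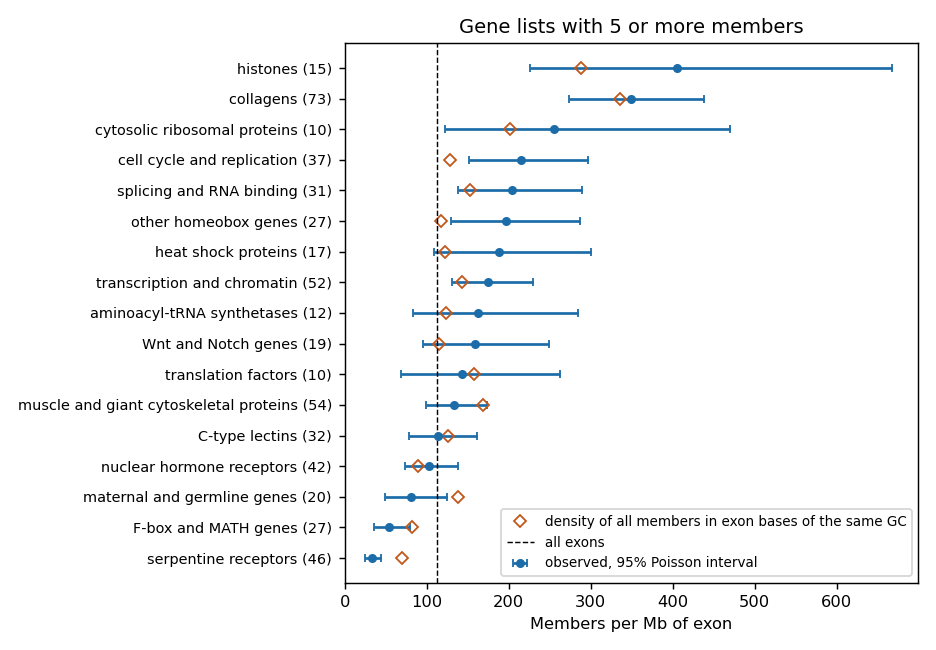
Members per Mb of exon for the 17 gene lists with 5 or more members, with the number of members in brackets; points and bars are observed densities with 95% Poisson intervals, diamonds the density of all members in exon bases of the same GC content, and the dashed line all exons (112 per Mb). Collagens and histones lie far right of the line. The collagen diamond is beside its point, and the histone diamond is left of its point but within the interval. The intervals of serpentine receptors and of F-box and MATH genes lie left of both the line and their diamonds.

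The Hox and PBC composite site was somewhat less frequent under the members than in exons at large, and so was its scrambled form. Exon windows of the same length, placed every 100 bp and weighted to the 5 GC classes of the members, served as background. Within a class, members and exon windows may still differ in GC content, which was not tested. TGATNNAT occurred in 13.7% of member windows (12.6 to 14.9) and in 15.2% of such exon windows, or 17.9% without the weights. A scrambled form of the composite, TAGTNNTA, occurred in 4.34% (3.69 to 5.09) against 5.23%. The ratio to weighted exon windows was 0.898 for the composite and 0.830 for the scrambled form, which was at least as low. Within GC classes the interval held the exon value in 4 of 5 classes for each. TAATTA occurred in 5.61% (4.88 to 6.45) against 4.52% with weights, a ratio of 1.24, and 7.03% without, so its direction turned with the weighting. Within GC classes the members were above the exon windows in 4 of 5, and the interval held the exon value in 3 of 5. In the classes where it did not, the members were higher: 17.4% against 13.2% under 35% GC, and 1.63% against 0.767% at 50% or more. The GC box GGGCGG, with 4.95% (4.26 to 5.74), lay above 2.66% without weights and, with weights, still above a value of 4.20%, which its interval missed. Within each of the 5 GC classes the interval, from only 6 to 64 windows with a match, held the exon value, and the members were above it in all 5. Both strands were searched, and a match can overlap another.

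The other motifs differed little from exons of the same GC content. GAGAGA was in 11.8% of member windows against 11.4%, and the TCF site (CTTTGA or CTTTGT) in 21.9% against 23.0%. The forkhead site (TGTTTAC or TGTTTGC) was in 3.58% against 3.75%, and the GATA site GATAAG in 7.31% against 7.77%. CACGTG was in 5.55% against 5.72% and CCGCAC in 3.79% against 3.45%. In each of these 6 the weighted exon value lay within the 95% interval of the members. Of 1909 6-mers with enough windows to compare, the ratio of members to weighted exon windows ran from 0.715 for ATGTTA to 1.40 for AGCGCC. The sequence CG was in 9 of the 10 highest 6-mers and in 521 of all 1909. The 6-mers overlap each other, GC content within a class was not matched, and the ratios are a description.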

How the data were processed

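Per the notes deposited with the files, peaks were called by the authors for replicate 1, for replicate 2 and for the pooled reads, always against a control alignment, and the IDR list was derived from the 3. The names of the caller and aligner and the threshold for IDR were not given in the sources used here. Control reads were not analysed here. Sonication gave fragments of 200 to 800 bp and positions refer to ce11, per the labels. The deposited signal is a score of unstated scale, used within a list only. The deposited lists give −log10 of a q-value, which was converted to q. Depth is unknown, which limits precision.

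Summits were placed on WBcel235 (the same assembly) with the exons of Ensembl release 115. From each replicate list, the strongest overlapping peak gave a member's replicate signal. Eligible exon bases lie over 500 bp from tRNA, snoRNA and snRNA genes. GC content came from windows of 201 bp in 5 classes, for gene lists in classes of 2.5 points. A 6-mer was compared where the background share gave at least 100 of the member windows. Intervals are 95% Wilson (shares) or exact Poisson (counts); no test was made, since there is 1 group.

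Members and lists were chosen with earlier results of these data known. After values were seen, genes that are not homeobox genes or not chemoreceptor genes were removed from those lists. Named genes are the 10 strongest members, the genes with most members, the strongest member of a gene list (given here for some lists) and those at the rank bounds. Sequence windows lie in 1 coding exon and not on chromosome I, which 842 members met, and 9 are shown. The counting was tested on simulated data. Python 3.11.15, numpy 2.4.6, pandas 2.3.3, SciPy 1.17.1 and matplotlib 3.10.9 were used.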

Additional observations from a re-analysis of the deposited data

How the results depend on the processing

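Of 52 values recomputed under an alternative, 33 stayed within the counting interval of the reported value (within 1.5 times for counts) and 19 did not. Leaving out 1 replicate from the overlap rule gave 5409 to 6206 members, 4161 to 4673 genes, an exon share of 32.7 to 33.1%, a median GC content of 42.8% with either and a share in the chromosome centres of 29.1 to 29.3%. Pooled and replicate summits within 100 bp left 1316 members in 1239 genes. Ranks beyond 10000 left 1820 members in 1601 genes, with a median GC content of 42.8%. With small RNA genes over 2000 bp away, the exon share was 31.0%, and for coding sequence alone it was 27.5%, against 24.4% of the genome. Windows of 50 bp to each side gave a median GC content of 44.6% (39.6% over exon bases) and TGATNNAT in 6.25% (7.51% of exon windows weighted to the members' GC classes, 9.31% unweighted). A promoter window from 500 bp upstream to 100 bp downstream held 10.5% of members and 10.4% of exon bases.

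Leaving out the peaks that overlap a stronger pooled peak, an alternative chosen after seeing the data, left 2647 members in 2349 genes and moved none of the 8 values by more than the interval or 1.5 times. The settings for the chromosome centres were also chosen after seeing the data. No paired analysis was possible because there was 1 group. With 2 replicates, unknown depth and 1 shared control alignment, the error of a single peak's signal cannot be given.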
